A study of Mus musculus with 15 samples.

Results

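The 78 genes described here carry the names of protein subunits of the mitochondrial ribosome, 49 with the prefix Mrpl, which stands for the large subunit, and 29 with the prefix Mrps, which stands for the small subunit. The names are historical: Mrps18a and Mrps30 code for proteins of the large subunit, and Mrps36 for a protein that is no longer counted among the ribosomal subunits. They were taken by name: every protein-coding gene in the table of 56980 genes whose mouse symbol starts with Mrpl or Mrps followed by a digit. All 78 were found in the annotation by their Ensembl identifier, and all 78 passed the filter on low values in every comparison. Another 6 loci matching the name are processed pseudogenes and were left out. Of these, Mrpl48-ps had a mean level of 8.40 and Mrpl23-ps1 of 3.57 TPM (abundance of a gene's transcripts, scaled for their length and to one fixed library total), so the values of Mrpl48 and Mrpl23 may include reads shared with them.

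Mitochondria keep a ribosome of their own, which translates the few messages encoded by mitochondrial DNA, all for subunits of the respiratory chain and ATP synthase. Its RNA is made in the mitochondrion, but every one of its proteins is encoded in the nucleus, translated in the cytosol and imported. Some of these proteins have counterparts in the bacterial ribosome and others are found only in mitochondria, and heart and skeletal muscle, which depend on oxidative metabolism, need the whole set.

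The samples were 15 mice of the DBA/2J-mdx strain, which lacks dystrophin and develops muscular dystrophy, with 1 RNA-seq library from each mouse and no wild-type group. The tibialis anterior (TA), a leg muscle, came from 4 mice treated with D + Q (dasatinib, a kinase inhibitor, with quercetin, a plant flavonoid, given together to remove senescent cells) and from 4 vehicle-treated mice. Treatment of the TA mice began at 3 months of age and ended at 5 months. The heart came from 3 D + Q–treated and 4 vehicle-treated mice, treated from 12 to 16 months of age, and both schedules had 2 doses per week. Tissue, age and length of treatment therefore split the mice in the same way and cannot be told apart. The 4 D + Q–treated TA mice are labelled male, while the other 3 groups held both sexes by their labels. D + Q–treated heart replicate 3 is labelled male but had 47.2 TPM of Xist, which female cells express, and 0.016 TPM of the Y-linked Ddx3y, as female mice do, so that by expression all 3 D + Q–treated hearts were female. The 4 D + Q–treated TA mice were male by expression as well. By expression, D + Q–treated TA against D + Q–treated heart is therefore also males against females. Within these mice sex and tissue cannot be told apart. Values of single mice are given below in the order of the replicate numbers.

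Levels in TPM can be compared between genes, but they carry no read depth, and the precision of each value rests on the spread between mice. Skeletal muscle markers (Ckm, Acta1 and 6 others) summed to between 57350 and 68880 TPM in TA and between 1332 and 1783 in heart, and ventricle markers (Myh6, Myl2 and 4 others) to between 29.4 and 128 in TA and between 21390 and 28380 in heart. Most of the skeletal sum in heart came from Ckm and Acta1, with means of 1104 and 438 TPM in vehicle-treated hearts. In whole tissue, fewer cells of a type and less RNA per cell cannot be told apart.

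The levels of the subunit messages were far from equal. Mrpl42, a large-subunit protein found only in mitochondria, had the highest level of the 78 in each of the 4 groups, and Mrps30, which despite its name sits in the large subunit, had the lowest. In TA, Mrpl42 stood at 296, 305, 293 and 249 TPM with vehicle and at 247, 296, 267 and 286 TPM with D + Q. In heart it stood at 226, 244, 273 and 223 TPM with vehicle and at 272, 280 and 298 TPM with D + Q. Mrps30 ranged from 5.52 to 8.58 TPM over the 15 mice. The fold between the highest and the lowest gene was 35.7 to 38.8 in the 4 groups. After Mrpl42, the highest means over all mice were 133 TPM for Mrps21 and 104 TPM for Mrpl30, both counterparts of bacterial proteins, and above Mrps30 the lowest were 10.2 TPM for Mrpl19 and 8.81 TPM for Mrpl35. In all, 27 genes had a mean under 20 TPM, 39 had a mean from 20 to 50 and 12 had a mean of 50 or more, and the 5 highest genes made up 25.4% of the summed mean level.

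Genes with a role of their own fell in different places in this order. Mrpl12, the stalk protein that recruits translation factors and also binds the mitochondrial RNA polymerase, was among the most abundant, with a mean of 76.8 TPM (rank 6). Mrps36 had a mean of 92.8 TPM (rank 5), but its protein is now known as Kgd4, a subunit of 2-oxoglutarate dehydrogenase rather than of the ribosome. Mrps12, a protein of the decoding centre, had a mean of 40.4 TPM, Mrpl58, which rescues stalled ribosomes, of 37.9, and Mrpl11, at the base of the stalk, of 30.5. The 3 Mrps18 proteins, which share a bacterial ancestor, had similar means: 39.2 TPM for Mrps18a, which is built into the large subunit, and 28.2 and 26.2 for Mrps18b and Mrps18c of the small subunit. In vehicle-treated TA the mean of Mrps18a was 37.0 ± 7.71 TPM (SD, n = 4) and that of Mrps18b 33.0 ± 4.199, closer together than the mice of the group were.

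The order of the 78 genes was much the same everywhere. Across genes, Spearman's rho between mean levels was 0.874 for vehicle-treated TA with vehicle-treated heart and 0.877 for the corresponding D + Q groups, and it was 0.993 and 0.978 for D + Q with vehicle within TA and within heart. These are descriptions over genes of the same libraries, and genes are not independent replicates. The summed level of the Mrpl genes was between 1.91 and 2.09 times that of the Mrps genes in all 15 mice.

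Summed over the 78 genes, the level in vehicle-treated TA was 2980, 3049, 2830 and 2284 TPM, and in D + Q–treated TA 2646, 2949, 2628 and 3047 TPM. Vehicle-treated hearts stood at 2479, 2629, 2772 and 2506 TPM and D + Q–treated hearts at 2907, 2904 and 2919 TPM. The TA groups overlapped throughout, whereas the 3 D + Q–treated hearts lay above all 4 vehicle-treated hearts. As means, this was 2786 ± 347 (SD, n = 4) and 2818 ± 212 (n = 4) in TA, and 2596 ± 134 (n = 4) and 2910 ± 7.94 (n = 3) in heart. The lowest mouse, vehicle-treated TA replicate 4, had the lowest value of the 8 TA mice for 60 of the 78 genes (76.9%), compared with 30.2% of all genes tested in TA. The same mouse had the lowest Ckm of the 8, at 6726 TPM against 8488 to 10590 in the others, and the lowest Acta1, at 10240 against 12490 to 15970. The part of whatever set this mouse apart in the subunit levels was not tested.

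**Figure D1:**
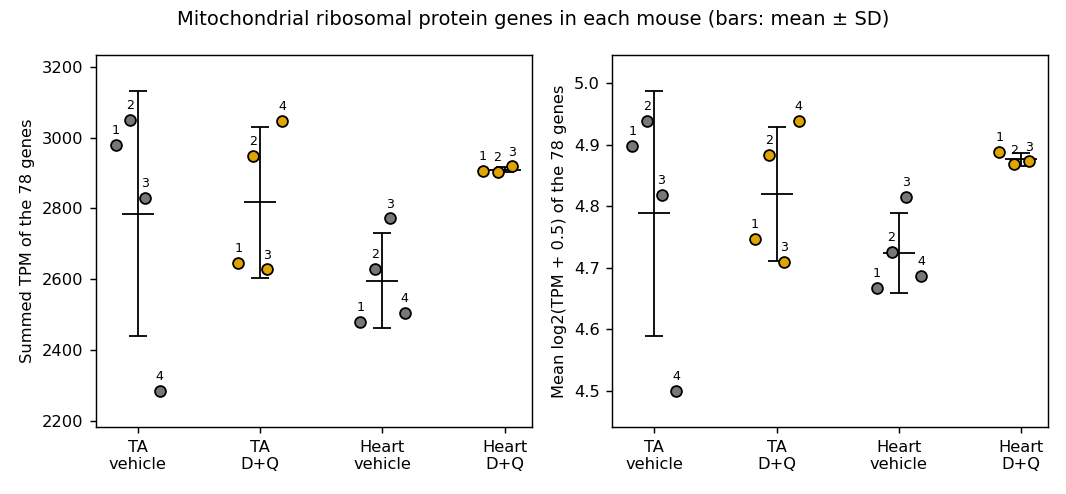
Level of the 78 mitochondrial ribosomal protein genes in each mouse, as summed TPM (left) and as the mean of log2(TPM + 0.5) over the genes (right). Points are mice with their replicate numbers, and bars give the mean ± SD of each group; the 3 D + Q–treated hearts (2904 to 2919 TPM) lie above the 4 vehicle-treated hearts (2479 to 2772), and vehicle-treated TA replicate 4 is the lowest mouse at 2284.

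Between mice of a group, single genes varied a little less than other genes. The median SD of log2(TPM + 0.5) over the 78 genes was 0.146 in D + Q–treated TA, 0.226 in vehicle-treated TA, 0.10 in D + Q–treated heart and 0.114 in vehicle-treated heart. For the 7223 genes in the same range of levels it was 0.187, 0.239, 0.116 and 0.130.

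**Figure D2:**
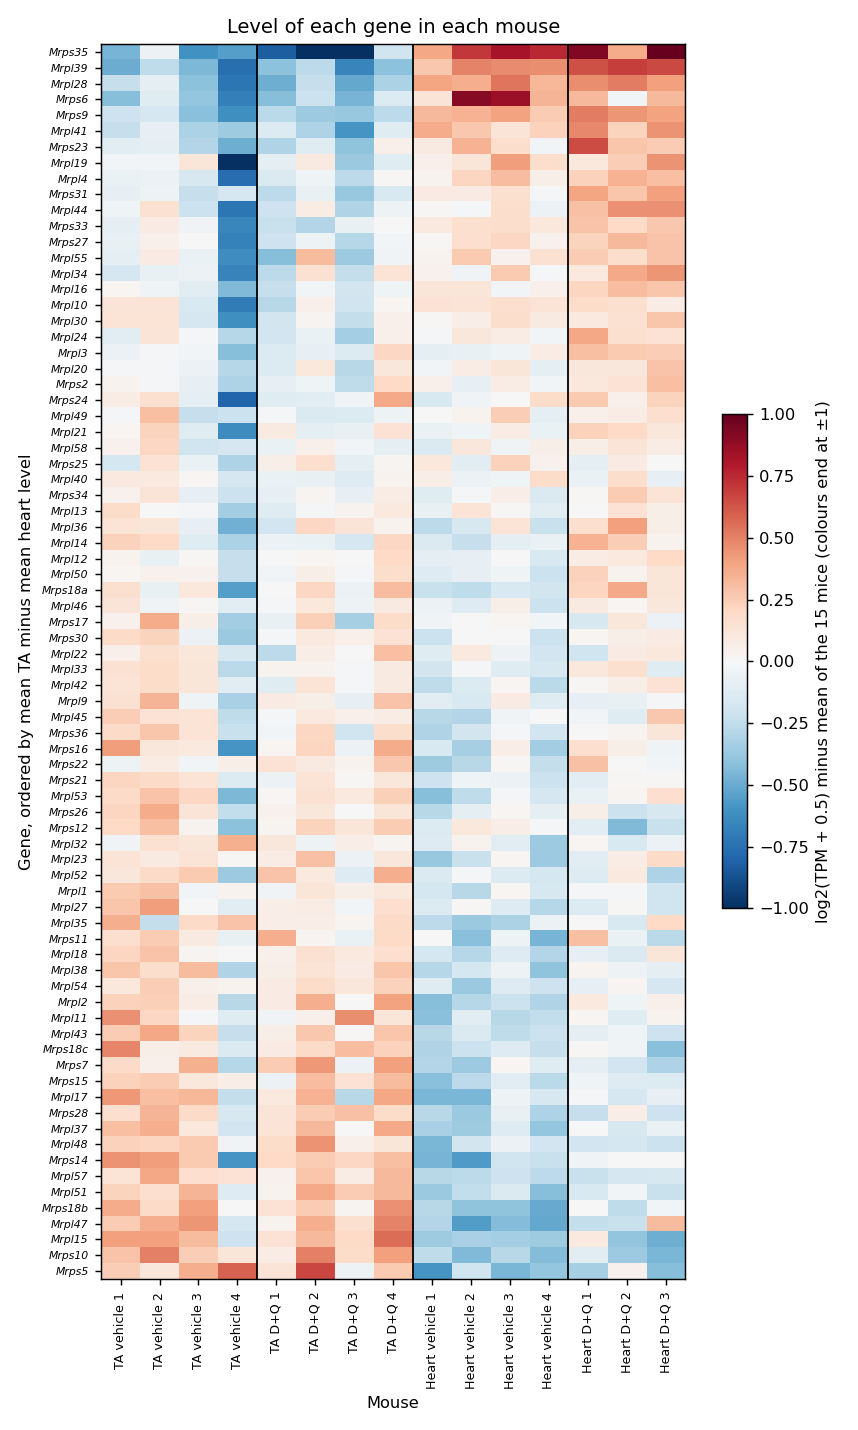
Log2(TPM + 0.5) of each of the 78 genes in each of the 15 mice, minus the mean of that gene over the mice, with colours ending at differences of 1 in either direction. Genes are ordered by mean TA minus mean heart level, so Mrps35 is at the top and Mrps5 at the bottom; the column of vehicle-treated TA replicate 4 is blue for most genes.

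Which subunit messages differed between TA and heart was tested first in vehicle-treated mice and then in the D + Q–treated mice. These are different animals, but both tests came from the same model, fitted to the mice of all groups together. The variance of each gene and the sex term were shared in that model. Calls made in both sets of mice are therefore not independent results. A gene was called when limma gave an adjusted p (Benjamini-Hochberg over all 17868 genes tested) under 0.05 and an absolute log2 difference above 0.5, both on the log2(TPM + 0.5) scale, where differences of lowly expressed genes come out too small. In vehicle-treated mice 6 of the 78 genes were higher in TA (7.69%, where 22.5% of all genes were) and 5 were lower (6.41%, where 14.2% were). In D + Q–treated mice 3 were higher in TA (3.85%, background 21.4%) and 8 were lower (10.3%, background 13.3%). On this scale, the share called was below that of all genes in each direction in both sets of mice. Mrpl15, Mrps5 and Mrps10 were called higher in TA in both, which is 50% of the vehicle calls and 100% of the D + Q calls. Mrpl28, Mrpl39, Mrps9 and Mrps35 were called lower in TA in both, which is 80% and 50% of the calls. A positive log2 difference, TA above heart, was found for 49 of the 78 with vehicle (62.8%, background 61.5%) and for 39 with D + Q (50%, background 60.9%). The medians were 0.11 with vehicle and -0.01 with D + Q, against 0.16 for all genes in both.

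These counts depend on the scale. When TPM was rescaled by median-of-ratios factors, the median of all genes in vehicle-treated mice moved from 0.16 to zero (to -0.002) and that of the 78 genes from 0.11 to -0.07. With that scale 1 gene (1.28%, where 16.3% of all genes were) was called higher in TA and 10 (12.8%, background 18.7%) lower in vehicle-treated mice, and 0 (background 16.5%) and 19 (24.4%, background 18.4%) in D + Q–treated mice. The share lower in TA with D + Q was thus below that of all genes on the first scale and above it on the second. The 5 genes lower in TA with vehicle were called on both scales, but of the 6 higher in TA only 1, Mrps5, was. Leaving out vehicle-treated TA replicate 4 raised the vehicle count of genes higher in TA from 6 to 11. The count over all genes then rose from 4027 of 17868 to 4749 of 17767. Leaving out vehicle-treated TA replicate 2 raised the count of genes lower in TA from 5 to 8. The count over all genes then rose from 2532 of 17868 to 2716 of 17683. With D + Q, the count of genes higher in TA went from 3 to 1 without TA replicate 2 and to 0 without heart replicate 3. The count over all genes was 3829 of 17868, with 3719 of 17787 without D + Q–treated TA replicate 2. It was 2739 of 17780 without D + Q–treated heart replicate 3.

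Mrpl39, a large-subunit protein particular to mitochondria, showed the smallest adjusted p of the 78 genes in both sets of mice. It stood at 10.04, 12.0, 10.3 and 8.31 TPM in vehicle-treated TA and at 17.4, 20.5, 20.1 and 20.02 in vehicle-treated heart. With D + Q it stood at 10.6, 11.9, 8.89 and 10.7 TPM in TA and at 22.6, 23.4 and 22.9 in heart. Every heart was above every TA. The log2 difference, TA minus heart, was -0.92 (SE 0.12, adjusted p = 2.1e-05) with vehicle and -1.08 (SE 0.14, adjusted p = 4.18e-05) with D + Q.

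Mrps9, a counterpart of a bacterial protein of the small subunit, ranged from 17.7 to 24.2 TPM over the 8 TA mice and from 32.6 to 39.1 TPM over the 7 hearts, with no overlap. Its log2 difference was -0.69 (SE 0.10, adjusted p = 6.15e-05) with vehicle and -0.76 (SE 0.12, adjusted p = 0.000206) with D + Q. Mrpl28, of the large subunit, ranged from 17.4 to 27.0 TPM in TA and from 36.6 to 42.2 in heart, again without overlap. Its log2 difference was -0.77 (SE 0.12, adjusted p = 0.000144) with vehicle and -0.84 (SE 0.15, adjusted p = 0.000538) with D + Q.

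Mrps35, a small-subunit protein particular to mitochondria, had the largest difference and a wide spread. Its level was 19.8, 26.3, 17.9 and 18.5 TPM in vehicle-treated TA and 15.3, 10.99, 12.5 and 23.8 in D + Q–treated TA. In heart it was 35.98, 45.1, 48.9 and 46.6 TPM with vehicle and 52.6, 35.6 and 60.2 with D + Q. All hearts were above all TA, with log2 differences of -1.09 (SE 0.23, adjusted p = 0.00131) with vehicle and -1.63 (SE 0.28, adjusted p = 0.000333) with D + Q. Mrps6, the counterpart of bacterial S6, was called lower in TA with vehicle only, at 13.9, 17.3, 14.3 and 11.5 TPM in TA against 20.7, 35.8, 34.6 and 24.0 in heart. Its log2 difference was -0.96 (SE 0.17, adjusted p = 0.000348) with vehicle and -0.38 (SE 0.21, adjusted p = 0.167) with D + Q, and the difference between these 2 values had an adjusted p of 1. Mrps6 overlaps Slc5a3 on the same strand in the annotation, which stood at 1.29 to 6.15 TPM in the 15 mice.

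Among the genes higher in TA, Mrps10 stood at 20.9, 24.4, 20.2 and 18.6 TPM in vehicle-treated TA and at 14.2, 12.4, 13.99 and 12.5 in vehicle-treated heart. The log2 difference was 0.64 (SE 0.12, adjusted p = 0.000693) with vehicle and 0.65 (SE 0.15, adjusted p = 0.00361) with D + Q. On the median-of-ratios scale these became 0.46 and 0.46, under the fold threshold. Mrps5, a protein of the small subunit with a bacterial counterpart, stood at 25.6, 23.4, 27.9 and 32.7 TPM in vehicle-treated TA and at 14.1, 18.7, 15.6 and 16.4 in vehicle-treated heart. Its highest value among vehicle-treated TA mice was in replicate 4, the mouse that was lowest for most of the 78 genes. With D + Q it ranged from 20.8 to 34.6 TPM in TA and from 15.9 to 22.2 in heart, so the tissues overlapped. Its log2 difference was 0.74 (SE 0.16, adjusted p = 0.00156) with vehicle and 0.59 (SE 0.19, adjusted p = 0.0257) with D + Q, and the second lost its call on the other scale (0.40, adjusted p = 0.165).

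Mrpl15, of the large subunit, was called in both sets of mice at 0.58 (SE 0.16, adjusted p = 0.00865) and 0.56 (SE 0.19, adjusted p = 0.0331), and on the other scale in neither (0.39 and 0.38). Its D + Q value was 0.34 (adjusted p = 0.35) without heart replicate 3 and 0.71 without heart replicate 1. Mrps18b and Mrpl47 were called with vehicle only, at 0.64 (SE 0.11, adjusted p = 0.000297) and 0.67 (SE 0.14, adjusted p = 0.00142), and on the other scale stood at 0.45 and 0.49. Mrps14 was called with vehicle at 0.50 (adjusted p = 0.0334), just past the threshold, and stood at 0.13 with D + Q. Mrps31, a small-subunit protein particular to mitochondria, was called lower in TA with D + Q only, at -0.55 (SE 0.11, adjusted p = 0.00122), and stood at -0.21 with vehicle. Mrpl41 (-0.70, adjusted p = 0.0016), Mrpl44 (-0.55, adjusted p = 0.0374) and Mrps23 (-0.52, adjusted p = 0.0194), all particular to mitochondria, were the other 3 called lower with D + Q only. Without D + Q–treated heart replicate 3, Mrps31 was at -0.48, under the fold threshold. For none of the genes called in 1 set of mice did the interaction test call a difference between the sets.

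**Figure D3:**
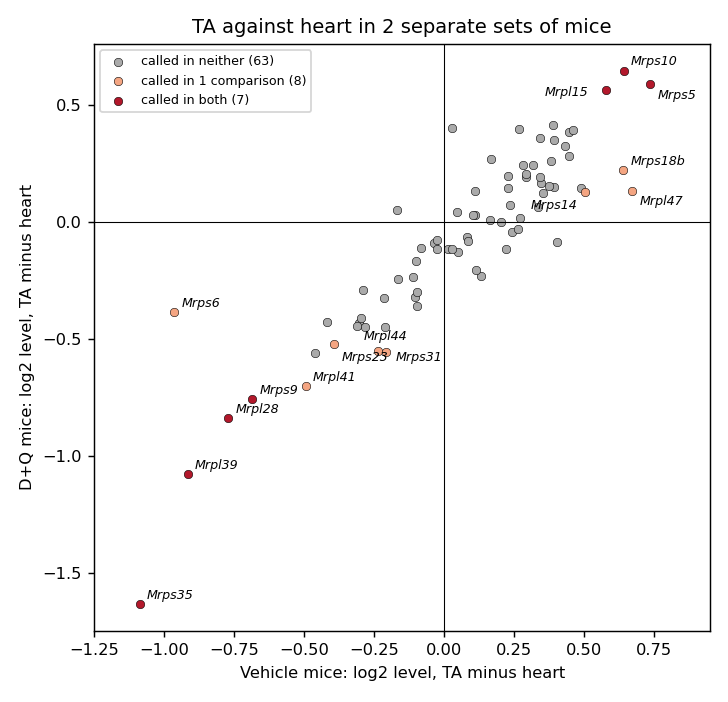
Log2 difference, TA minus heart, of each of the 78 genes in vehicle-treated mice (horizontal) and in D + Q–treated mice (vertical), on the log2(TPM + 0.5) scale, coloured by whether limma called the gene in neither (63), 1 (8) or both (7) comparisons. Mrps35, Mrpl39, Mrpl28 and Mrps9 are at the lower left, and Mrps5, Mrps10 and Mrpl15 at the upper right.

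By prefix, with vehicle, 4 higher and 3 lower calls were among the 29 Mrps genes and 2 and 2 among the 49 Mrpl genes. Of the 46 genes with a bacterial counterpart 5 were called higher (10.9%) and 3 lower (6.52%) in TA. Of the 31 particular to mitochondria 1 and 2 were (3.23% and 6.45%, where all genes gave 22.5% and 14.2%). Mrps18a and Mrps18b were counted among the 31 although they share a bacterial ancestor with Mrps18c, and Mrps18b was the 1 called higher. With D + Q, 3 of the 46 were called higher (6.52%, background 21.4%) and 2 lower (4.35%, background 13.3%). Of the 31, 0 were called higher and 6 lower (19.4%). The 6 were Mrpl39, Mrpl41, Mrpl44, Mrps23, Mrps31 and Mrps35. On the median-of-ratios scale, with D + Q, 11 of the 46 (23.9%) and 8 of the 31 (25.8%) were called lower (background 18.4%). On that scale 0 of either class were called higher. The difference between the classes was not tested.

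The 250 bases before the start of transcription are shown for 5 of these genes, Mrpl39 and Mrps9 as the pair with the smallest adjusted p among those lower in TA, Mrps10 and Mrps5 as a pair higher in TA in both sets of mice, and Mrps18a as the gene with the smallest p in the heart comparison described further on. They are from the RefSeq promoter table for GRCm38.p6, read 5′ to 3′ on the strand of the gene, at chr16:84735245-84735494 (minus strand), chr1:42850983-42851232, chr17:47368947-47369196, chr2:127587176-127587425 and chr17:46110754-46111003 (all plus strand). Capitals mark a match to the NRF1 motif GCGC NN GCGC in Mrpl39 and to the ETS motif CCGGAAG in Mrps18a, and no searched motif was matched in the other 3.
Mrpl39: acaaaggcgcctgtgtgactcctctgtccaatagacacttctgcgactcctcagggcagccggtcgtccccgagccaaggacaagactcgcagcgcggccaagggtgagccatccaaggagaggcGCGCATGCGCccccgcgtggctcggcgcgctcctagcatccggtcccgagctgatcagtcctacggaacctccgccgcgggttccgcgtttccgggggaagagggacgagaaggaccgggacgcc
Mrps9: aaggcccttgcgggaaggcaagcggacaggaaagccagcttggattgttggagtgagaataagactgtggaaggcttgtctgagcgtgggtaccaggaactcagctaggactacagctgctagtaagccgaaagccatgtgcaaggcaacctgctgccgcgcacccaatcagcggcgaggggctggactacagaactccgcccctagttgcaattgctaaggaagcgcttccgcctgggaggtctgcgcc
Mrps10: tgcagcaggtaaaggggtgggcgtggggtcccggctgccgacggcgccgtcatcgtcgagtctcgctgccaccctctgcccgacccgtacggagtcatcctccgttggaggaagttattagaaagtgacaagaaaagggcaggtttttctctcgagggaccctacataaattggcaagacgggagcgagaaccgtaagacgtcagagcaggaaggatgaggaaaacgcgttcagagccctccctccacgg
Mrps5: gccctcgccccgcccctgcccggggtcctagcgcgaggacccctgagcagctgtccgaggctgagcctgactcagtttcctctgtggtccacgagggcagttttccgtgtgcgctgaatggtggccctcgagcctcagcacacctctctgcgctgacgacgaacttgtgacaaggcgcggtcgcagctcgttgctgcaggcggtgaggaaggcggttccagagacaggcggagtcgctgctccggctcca
Mrps18a: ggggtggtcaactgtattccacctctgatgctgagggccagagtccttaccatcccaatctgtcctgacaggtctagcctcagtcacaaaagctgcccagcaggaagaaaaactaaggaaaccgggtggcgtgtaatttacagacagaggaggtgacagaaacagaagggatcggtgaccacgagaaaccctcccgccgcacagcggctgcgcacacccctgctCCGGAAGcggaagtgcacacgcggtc

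In GRCm39, the build of the expression values, Mrpl39 lies at chr16:84502276-84533793 on the minus strand, and Mrps9 at chr1:42890348-42945274, Mrps10 at chr17:47679620-47692441, Mrps5 at chr2:127429135-127448789 and Mrps18a at chr17:46421909-46446812, all on the plus strand. ETS factors (such as GABP), NRF1 and YY1 are known regulators of nuclear genes for mitochondrial proteins, and the E-box is the site of MYC and related factors. Promoters were in the table for 69 of the 78 genes, and the motifs were searched on both strands. The ETS letters CCGGAAG were in the promoters of 18 of these genes (26.1%), compared with 10.2% of protein-coding genes and 6.91% of all promoters of the same length. The NRF1 letters GCGC NN GCGC (unbroken) were in 10 (14.5%, against 7.72% and 4.98%), the YY1 letters AAGATGG in 6 (8.70%, against 4.77% and 4.49%) and the E-box CACGTG in 5 (7.25%, against 7.61% and 6.02%). These are counts of letters in a window and were not tested. The start of a protein-coding gene on the opposite strand lay within 1000 bases of the start of 29 of the 78 genes (37.2%), compared with 10.2% of all protein-coding genes. For 39 genes the annotated span overlapped a protein-coding gene of the opposite strand, and whether the quantification used strand is not given in the sources used here. Mrps11 and Mrpl46 are such a pair within the set itself.

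In heart, the comparison of D + Q with vehicle asked whether the treatment changed the subunit messages of old dystrophic hearts. No gene of the 78 was called in either direction by limma, with labelled sex in the model, where 0.105% of the 16132 genes tested were called higher and 0.211% lower. The smallest adjusted p of the 78 was 0.0817. Below that threshold the values leaned to one side: 69 of the 78 genes (88.5%) had a positive log2 fold change, D + Q minus vehicle, compared with 49.5% of all genes, and the median was 0.15 against -0.002 for all genes. At an unadjusted p under 0.05, 26 were higher (33.3%, background 9.65%) and 1, Mrps12, was lower (1.28%, background 7.99%). For 21 of the 78 (26.9%, background 9.63%) all 3 D + Q–treated hearts were above all 4 vehicle-treated hearts, and for 0 all were below (background 5.57%). These genes share libraries and move together between mice, so their number is not a number of independent results.

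The count at an unadjusted p was less stable than the sign. Without D + Q–treated heart replicate 3 it fell from 26 to 8 (10.3%, where all genes gave 5.84%), and with sex read from expression in place of the label it was 12 (15.4%, background 4.98%). It was 16 (20.5%) both without vehicle-treated heart replicate 1 (background 7.68%) and without the trend in the prior variance (background 7.70%). Under all 16 alternatives of this comparison between 63 and 71 of the 78 genes had a positive log2 fold change, and the median was between 0.10 and 0.18. Among the mice that were female by expression, the mean log2 level of the 78 genes was 4.73 and 4.82 in vehicle-treated replicates 2 and 3 and between 4.87 and 4.89 in the 3 D + Q–treated hearts.

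Other features moved with treatment in the same hearts. The 4 atrium markers (Myl7, Myl4, Sln and Nppa) summed to between 862 and 4260 TPM in vehicle-treated hearts and to between 382 and 427 in D + Q–treated hearts, none of the 4 overlapping between groups and 3 of 4 called lower. Myl7, a light chain of atrial myosin, stood at 94.1, 730, 541 and 283 TPM with vehicle and at 4.00, 4.54 and 3.46 with D + Q. Of the 8 skeletal muscle markers 6 were tested in heart, 5 of them had a positive log2 fold change (median of the 6, 1.035) and 0 were called. Ventricle markers summed to between 21390 and 23700 TPM with vehicle and 26780 and 28380 with D + Q, red-cell markers to between 346 and 1231 and between 26.8 and 122, and fibroblast markers to between 446 and 650 and between 359 and 425. Their part in the values of the subunit genes was not tested.

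Mrps18a had the smallest p. Its level was 33.1, 32.4, 34.8 and 34.1 TPM in vehicle-treated hearts and 44.9, 50.5 and 42.0 in D + Q–treated hearts. The groups did not overlap, and the log2 fold change was 0.43 (SE 0.07, 95% interval 0.26 to 0.59, adjusted p = 0.0817 in limma). In TA the same gene ranged from 26.2 to 43.3 TPM with vehicle and from 37.2 to 48.0 with D + Q. The 2 next genes were Mrpl2 and Mrpl3, proteins near the peptidyl transferase centre. Mrpl2 stood at 27.6, 30.5, 32.0 and 30.1 TPM with vehicle and at 40.0, 36.1 and 38.6 with D + Q, a log2 fold change of 0.33 (SE 0.07, adjusted p = 0.102). Mrpl3 stood at 21.6, 21.9, 22.3 and 24.2 TPM with vehicle and at 28.4, 27.6 and 27.4 with D + Q, a log2 fold change of 0.31 (SE 0.07, adjusted p = 0.103). Neither gene had overlapping groups. Mutations of MRPL3 and of MRPL44, a large-subunit protein with a fold like that of RNase III, cause cardiomyopathy in people. Mrpl44 stood at 17.7, 17.4, 19.8 and 16.8 TPM with vehicle and at 21.5, 24.3 and 24.3 with D + Q, with a log2 fold change of 0.37 (SE 0.08, adjusted p = 0.112).

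Genes with a role of their own did not stand together in heart. Mrpl12 stood at 72.0, 72.3, 76.4 and 68.9 TPM with vehicle and at 80.5, 82.1 and 88.0 with D + Q (log2 fold change 0.21, SE 0.06, adjusted p = 0.16). Mrpl47 had the largest value of the 78, 0.45 (SE 0.12, adjusted p = 0.128), with 19.5 TPM in D + Q–treated replicate 3 against 13.1 and 13.3 in the other two. Mrps18b had a log2 fold change of 0.31 and Mrps18c, its close relative in the same subunit, of 0.03. Mrpl58 had 0.08 (adjusted p = 0.603) and Mrps36 0.21 (adjusted p = 0.219).

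Of the 9 genes with a negative value, Mrps12 and Mrps6 were the farthest from zero. Mrps12 was at 36.2, 43.1, 41.8 and 39.4 TPM with vehicle and at 37.1, 29.4 and 34.2 with D + Q, so that the groups overlapped by 1 mouse on each side. Its log2 fold change was -0.27 (SE 0.10, adjusted p = 0.212 in limma). Without D + Q–treated replicate 2 it was -0.17. Mrps12 starts beside Sars2 on the opposite strand, which codes for the mitochondrial seryl-tRNA synthetase and stood at 3.83 to 4.59 TPM with vehicle and at 5.11 to 5.99 with D + Q. Mrps6 was at 20.7, 35.8, 34.6 and 24.0 TPM with vehicle and at 23.8, 18.5 and 23.7 with D + Q, with a log2 fold change of -0.41 (SE 0.18, adjusted p = 0.3). It was -0.735 without D + Q–treated replicate 3, -0.23 without D + Q–treated replicate 2 and -0.68 with sex read from expression. The 4 vehicle-treated hearts had the same order for Mrps6 as for Myl7 above, replicate 2 highest and replicate 1 lowest, and the part of atrial tissue in Mrps6 was not tested. The other 7 had log2 fold changes nearer to zero, Mrps25 being the lowest of them at -0.07 (SE 0.10, adjusted p = 0.75).

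Split by name prefix, 46 of 49 Mrpl genes and 23 of 29 Mrps genes had a positive log2 fold change in heart, with medians of 0.15 and 0.14. For genes with a bacterial counterpart this was 41 of 46 (median 0.14) and for those particular to mitochondria 27 of 31 (median 0.15).

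**Figure D4:**
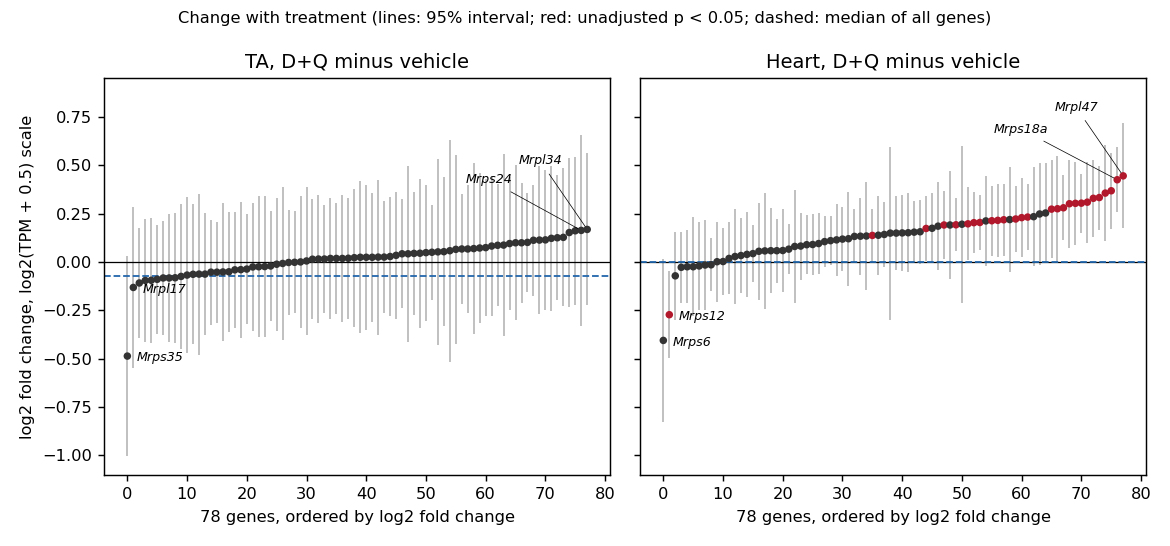
Log2 fold change, D + Q minus vehicle, of each of the 78 genes in TA (left) and heart (right), each panel ordered by its own values, with 95% intervals from limma and red points for an unadjusted p under 0.05. The dashed line is the median of all genes tested, -0.07 in TA and -0.002 in heart; in heart 69 of the 78 points lie above zero, and 0 genes were called in either tissue.

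In TA, the same comparison in younger mice gave no call among the 78 genes, and none among the 16298 genes tested (0% in either direction) with 1 surrogate variable in the limma model. The count test of the study, which was not run here, reported genes changed in both directions in this tissue. At an unadjusted p under 0.05 there were 0 of the 78, where 0.638% of all genes were higher and 2.36% lower. For 0 of the 78 did the groups not overlap, where this held for 0.264% of all genes with D + Q above vehicle and for 1.25% with D + Q below. The adjusted p was 0.999 for every one of them. A positive log2 fold change was found for 49 of the 78 (62.8%, background 33.6%), with a median of 0.02 against -0.07 for all genes, but this number was not stable. It was 15 (19.2%, background 22.8%) without vehicle-treated TA replicate 4 and 23 (29.5%, background 34%) without D + Q–treated replicate 3. Without D + Q–treated replicate 2 it was 30 (38.5%, background 31.1%). With labelled sex in place of the surrogate variable or with males only it was 27 (34.6%, backgrounds 38.0% and 37.6%). On the median-of-ratios scale it was 70 (89.7%, background 50.6%), with a median of 0.11 against 0.003.

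The 3 genes with the smallest p among those with a positive value in TA were Mrpl34 at 0.17 (SE 0.18, 95% interval -0.22 to 0.56), Mrps18a at 0.16 (SE 0.17, -0.22 to 0.55) and Mrpl36 at 0.15 (SE 0.17, -0.23 to 0.54), Mrpl34 and Mrpl36 being counterparts of bacterial proteins. Mrpl34 stood at 45.6, 48.8, 49.1 and 32.2 TPM with vehicle and at 42.7, 57.1, 43.4 and 56.5 with D + Q, so the groups overlapped. Among the negative values, Mrps35 had the smallest p and was the farthest from zero at -0.49 (SE 0.23, 95% interval -1.005 to 0.033, adjusted p = 0.999 in limma). Its 3 lowest mice in TA were D + Q–treated replicates 1, 2 and 3, given above, but replicate 4 at 23.8 TPM was above 3 of the 4 vehicle-treated mice. By p, Mrpl32 and Mrpl40 followed at -0.11 (SE 0.13) and -0.09 (SE 0.13). A value of 0.15, the median of the 78 genes in heart, lies within each of these intervals except that of Mrps35.

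Whether the treatment changes differed between the tissues was tested with an interaction term over all 15 mice. None of the 78 genes was called by limma, where 0.056% of all genes were called higher and 0.0056% lower, and the adjusted p of each was about 1. At an unadjusted p under 0.05, 4 of the 78 had a lower value in TA than in heart (background 1.98%): Mrpl35, Mrpl47, Mrps18b and Mrps31. Only Mrps6 had a higher one (1.28%, background 2.24%). The change in TA minus the change in heart was positive for 10 of the 78 (12.8%, background 48.3%), with a median of -0.13 against -0.01 for all genes. The number was 25 (32.1%, background 56.7%) without vehicle-treated TA replicate 1 and 17 (21.8%, background 53.2%) without vehicle-treated TA replicate 2. It was 5 (6.41%, background 42.1%) without vehicle-treated TA replicate 4 and 4 (5.13%, background 48.6%) without vehicle-treated heart replicate 3. For Mrpl35 the log2 value was -0.49 (SE 0.18), for Mrpl47 -0.54 (SE 0.22) and for Mrps6 0.58 (SE 0.27).

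**Figure D5:**
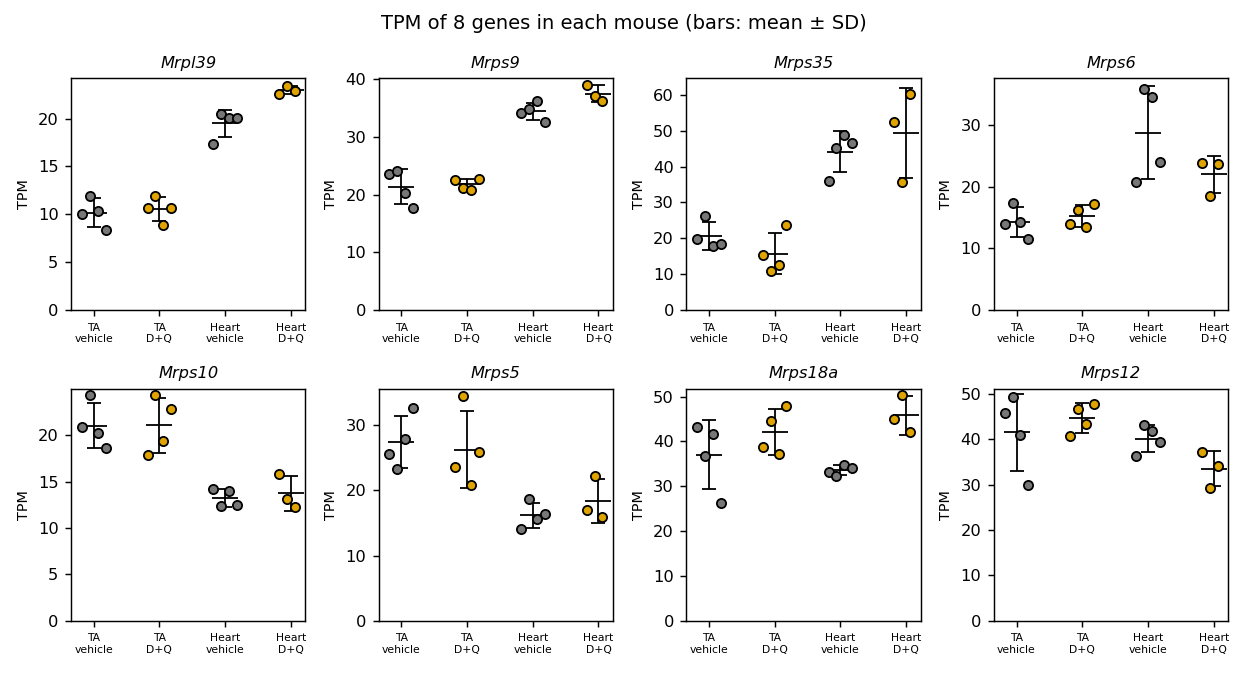
TPM of 8 genes in each mouse, with the mean ± SD of each group (n = 4, or 3 for D + Q–treated heart) and axes from zero. Mrpl39, Mrps9 and Mrps35 are higher in every heart than in any TA, Mrps10 and Mrps5 are lower in heart on average, Mrps18a is higher in all 3 D + Q–treated hearts than in the vehicle-treated hearts, and the D + Q and vehicle groups of Mrps6 and Mrps12 overlap in heart.

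The genes around the subunits were read from the same fits, in lists of known members of the pathway. In heart, 0 genes of any of the 6 lists were called with D + Q. Positive log2 fold changes were found for all 5 ribosomal subunits named outside the Mrpl and Mrps scheme (Dap3, Ptcd3, Chchd1, Aurkaip1 and Gadd45gip1, median 0.16), for 17 of 21 factors of ribosome assembly (0.12), 15 of 16 factors of mitochondrial translation (0.17), 11 of 17 mitochondrial tRNA synthetases (0.10), 7 of 12 genes of mitochondrial transcription and biogenesis (0.05) and 9 of 10 common markers of mitochondrial mass, such as Vdac1 and Cs (0.18). Among the biogenesis genes, Ppargc1a, a coactivator of genes for mitochondrial proteins, had the largest value, 0.89 (SE 0.16, adjusted p = 0.0908), at 35.6, 29.4, 44.3 and 29.7 TPM with vehicle and 59.4, 78.2 and 59.3 with D + Q. It was singled out after its value was seen. Mtrfr, a factor of ribosome rescue, was also counted among the 12 genes of that list. In TA 0 genes of these lists were called either, and the medians were -0.05, -0.04, -0.001, -0.01, -0.07 and 0.05 in the same order.

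Between tissues, with vehicle, the lists gave 1 call higher and 1 lower in TA for the other subunits, 2 and 1 for assembly, 2 and 2 for translation factors, 0 and 2 for tRNA synthetases, 0 and 1 for biogenesis and 2 and 0 for mitochondrial mass. With D + Q these were 0 and 1, 3 and 2, 0 and 2, 1 and 4, 0 and 2, and 1 and 1. The shares of all genes called were 22.5% higher and 14.2% lower with vehicle, and 21.4% and 13.3% with D + Q, and with 5 to 21 genes in a list a single call weighs much in its share. In the interaction 0 were called. The other subunits went opposite ways: Chchd1 was higher in TA, at 57.0 ± 3.69 TPM (SD, n = 4) against 35.9 ± 1.87 in heart (log2 difference 0.66, adjusted p = 1.6e-05), and Dap3, a small-subunit protein that binds GTP, was lower, at 15.3 ± 3.96 TPM against 29.5 ± 1.33 (-0.96, adjusted p = 0.000312). Dap3 was called with D + Q too, at -0.94 (adjusted p = 0.00228), while Chchd1 at 0.39 was under the fold threshold.

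The assembly factors Malsu1 (0.71, adjusted p = 0.000855) and Ybey (0.83, adjusted p = 0.000997) were higher in TA, and so were Gfm2, which recycles ribosomes (0.59, adjusted p = 0.000211), and Mtres1 (0.51, adjusted p = 0.000266), which acts in the rescue of stalled ribosomes. The outer membrane channel Vdac1 stood at 509 ± 87.0 TPM (SD, n = 4) in TA against 303 ± 10.4 in heart (0.73, adjusted p = 7.12e-05), and the import channel subunit Timm23 at 124 ± 16.3 against 80.9 ± 4.30 (0.60, adjusted p = 0.000111). Lower in TA were the synthetases Vars2 (-0.81, adjusted p = 0.00087) and Nars2 (-0.58, adjusted p = 0.0247) and the coactivator Ppargc1b (-0.59, adjusted p = 0.014). On the median-of-ratios scale Chchd1, Gfm2, Mtres1 and Timm23 were under the fold threshold, Ppargc1b was at -0.37 without vehicle-treated TA replicate 3, Mtres1 fell under the fold threshold without vehicle-treated TA replicate 1 or 2 or heart replicate 4, and Nars2 lost its call without vehicle-treated TA replicate 1 (adjusted p = 0.0785), heart replicate 1 (0.062) or heart replicate 3 (0.0846).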

How the data were processed

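RNA-seq of TA muscle (8 mice) and heart (7 mice) was analysed from 1 table. Per the submitters' notes and methods, the authors trimmed reads with Trim Galore 0.6.10, quantified them with Salmon 1.10.3 against GRCm39, summed them per gene and deposited TPM for 56980 genes. The annotation release and library strandedness are not given in the sources used here. TPM sums to 1000000 in each library and keeps no depth, so counting error is unknown. 56236 identifiers were found in GENCODE M39, which gave symbols, positions and biotypes.

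From these values, log2(TPM + 0.5) was fitted with limma 3.58.1 (lmFit, eBayes with trend) in R 4.3.3, after genes not reaching 0.5 TPM in 3 of the fitted mice were dropped. The TA model held 1 surrogate variable (an iteratively re-weighted estimate of 5 rounds, written out for these values), the heart model labelled sex, and the tissue and interaction models 4 group means with labelled sex over all 15 mice. Tests were two-sided, adjusted by Benjamini-Hochberg over all genes. Calls needed an adjusted p under 0.05 with a log2 fold change beyond 0.5 in either direction. The code was tested on simulated data.

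Mice were grouped by their labels. The labels name separate samples, and correlations between libraries of a group were 0.977 to 0.991. Genes and lists were chosen with earlier results of these data known. Named genes are the called genes with the smallest adjusted p (up to 5 per comparison and direction), the 3 smallest p per direction for each treatment, the 3 highest and 3 lowest levels, genes with a role of their own, and up to 2 genes per list and comparison. Others were named after their values were seen. Alternatives were other pseudocounts (0.1, 1), filters (1 TPM, none), median-of-ratios scaling, no trend, other covariates, the replicate number as a block, males only in TA, and each mouse left out. The count test of the study, which reported genes changed in both directions in TA and in heart, was not run on TPM.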

Additional observations from a re-analysis of the deposited data

Results flagged for a closer look

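In all, 102 sets of 4 mice were tested for a mouse far from the other 3 (Dixon's test at its 95% critical value), and 5 had one. The sets were the genes named for their level, role or change, with the summed level, mean level and Mrpl to Mrps ratio. Chance gives about 1 in 20 for independent sets, but these sets reuse the same mice, so their number cannot be judged by that rate. D + Q–treated TA replicate 4 was high for Mrpl12, at 87.9 TPM against 76.4 to 77.6, and for Mrpl3, at 26.6 TPM against 20.9 to 21.7. Vehicle-treated TA replicate 4 was low for Mrpl3, at 17.0 TPM against 22.01 to 22.7, and for Mrpl19, at 4.201 TPM against 9.77 to 10.9. Vehicle-treated heart replicate 1 was low for Mrpl39, at 17.4 TPM against 20.02 to 20.5. The D + Q–treated hearts, with 3 mice, could not be tested in this way. For Mrpl3 in TA the 2 values lie on opposite sides, the treated mouse high and the vehicle mouse low, and its log2 fold change in TA was 0.07 (SE 0.15, adjusted p = 0.999 in limma).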

How the results depend on the processing

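All alternatives were computed. In both treatment comparisons and the interaction, the number of the 78 genes called stayed at 0 under each of them. For named genes, 864 values kept their direction and their side of the threshold, 32 lost the call and 4 turned: Mrps18a in TA to -0.021 both with labelled sex replacing the surrogate variable and with males only, Mrpl36 in TA to -0.055 without D + Q–treated replicate 3 (range -0.055 to 0.219 over the mice left out), and Mrps25 in heart to 0.012 without vehicle-treated replicate 3 (range -0.156 to 0.012). None of these 3 genes had been called. On the median-of-ratios scale the tissue comparison gave 1 higher, 10 lower and a median of -0.074 with vehicle, and 0 higher, 19 lower and a median of -0.202 with D + Q. Leaving out each mouse gave 5 to 11 higher, 5 to 8 lower and medians of 0.064 to 0.244 with vehicle. With D + Q it gave 0 to 4 higher, 6 to 9 lower and medians of -0.06 to 0.05. Over all genes the same fits gave 3483 to 4749 higher, 2225 to 2716 lower and medians of 0.099 to 0.237 with vehicle. With D + Q the all-gene ranges were 2739 to 4329, 1753 to 2500 and 0.129 to 0.207. Sex read from expression gave 1 higher with D + Q, where 3340 of all 17868 genes were called higher. The medians of the 78 genes ranged from -0.05 to 0.07 in TA, 0.11 to 0.18 in heart and -0.19 to -0.08 in the interaction when a mouse was left out. The cause of these shifts was not tested. Groups share replicate numbers, but the mice are different animals, and deviations of same-numbered mice correlated at -0.114 in TA and 0.001 in heart, so the numbers do not pair them. With the number as a block, 0 of the 78 genes were called in TA or heart and the medians were 0.03 and 0.14. The D + Q tissue comparison then gave 2 higher and 7 lower, where 3843 and 2718 of all 17868 genes were called. Groups of 3 or 4 mice, and no read depth, limit what could be detected.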
